A study of Mus musculus with 15 samples.

Results

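The genes described here encode shelterin and telomere end protection factors. They are the 9 genes Terf1, Terf2, Terf2ip, Tinf2, Acd, Pot1a, Pot1b, Ctc1 and Rtel1, chosen by name and matched by symbol to the Ensembl identifiers of the count table with the GENCODE vM21 annotation. All 9 were found among the 45706 genes listed, and all 9 were among the 18983 genes that passed the filter on low counts. The study asked whether loss of the pro-apoptotic protein PUMA changes blood formation when telomeres are short, and RNA was sequenced from lineage-negative (Lin-) bone marrow (BM) cells, the fraction left after magnetic removal of cells with lineage markers. The cells came from the femora of secondary recipients, that is, irradiated CD45.1+ mice that had received LSK cells (Lin-Sca1+cKit+ stem and progenitor cells) in the last of a pair of serial transplantations.

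Donors were C57BL/6J mice of 4 genotypes. WT donors carried neither deletion, and 3 libraries were made from their recipients. Puma-/- donors lacked Puma, which the annotation lists as Bbc3 (n = 4). G3 mTerc-/-Puma+/+ donors lacked mTerc, the telomerase RNA listed as Terc, and were the third generation (G3) bred without it (n = 4). The last donors, G3 mTerc-/-Puma-/-, were labelled as lacking both (n = 4), and their libraries are called labelled double-deficient here. Both deletions were carried by all cells of the donor rather than driven by a cell-type-specific Cre, and recipient cells could remain in the Lin- fraction since no sort for donor cells is named for RNA. The age of the recipients is not in the labels.

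Shelterin is the protein complex that coats the TTAGGG repeats at chromosome ends and keeps them from being read as broken DNA. TRF1 and TRF2 bind the duplex repeat, RAP1 binds TRF2, TIN2 bridges both TRF proteins to TPP1, and TPP1 carries POT1 to the single-stranded overhang. CTC1 belongs to the CST complex, which guides fill-in of the C-rich strand, and RTEL1 is a helicase that unwinds telomeric loops. Inherited variants of several of these genes cause telomere biology disorders with BM failure in humans.

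Library totals ran from 102790519 to 158367059 counts, and each of the 9 genes had between 2254 and 14249 counts in every library. Counting error was smaller than the spread between libraries, by the least margin for Tinf2, which varied least. Terc had 4 to 17 counts in the 7 mTerc+/+ libraries and 0 to 1 in the 8 mTerc-/- libraries. Bbc3 was 5.04 to 6.83 normalized CPM in Puma-/- but 13.5 to 17.1 in the 4 labelled double-deficient libraries, beside 9.71 to 23.6 in WT. The Bbc3 level therefore went against the label of that group, and the group is named by its label alone. Replicate 2 of that group stood apart, with a median correlation of log2 CPM with the other libraries of 0.966, where the other 14 libraries had 0.987 to 0.992. It is not drawn in the study's heatmaps, and tests here used the 14 other libraries. Values of all 15 are printed. The labels do not say that libraries came from separate recipients, so p-values measure only the spread between these samples. In bulk RNA, fewer cells of a type and less RNA per cell cannot be told apart.

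Mice carry a pair of POT1 genes, Pot1a and Pot1b, which hold the same place in shelterin. Their reads have to be told apart by sequence, so the start of both coding sequences is shown, read from the GENCODE vM21 transcripts on GRCm38 (mm10), 5′ to 3′ from the ATG, with the bases that differ in capitals. The 150 bases of Pot1a lie on the minus strand of chromosome 6 in exons between 25778944 and 25798017, and the 150 of Pot1b on the minus strand of chromosome 17 in exons between 55698562 and 55706114.
Pot1a: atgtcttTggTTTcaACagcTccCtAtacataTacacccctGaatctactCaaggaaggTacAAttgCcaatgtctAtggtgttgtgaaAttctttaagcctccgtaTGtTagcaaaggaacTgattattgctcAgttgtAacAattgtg
Pot1b: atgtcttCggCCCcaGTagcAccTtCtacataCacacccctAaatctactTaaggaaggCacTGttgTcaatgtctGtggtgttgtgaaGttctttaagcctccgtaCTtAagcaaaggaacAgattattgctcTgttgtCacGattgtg
The stretches differed at 25 of 150 positions. Over the whole coding sequence, 78.8% of 1917 aligned bases were identical, the longest identical run in any transcript pair was 41 bases, and none of the 50-base words of one gene's transcripts occurred in the other's. For Terf1 and Terf2 the coding identity was 63.1% and the longest shared run 17 bases.

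Levels of different genes were compared per length, as normalized CPM per kilobase of the union of each gene's exons, with medians over all 15 libraries. Terf2 stood highest at 13.9 (range 12.4 to 15.6), followed by Acd at 12.9 and Ctc1 at 12.2. Rtel1 came next at 9.93, then Terf1 at 7.64, Pot1b at 7.49 and Tinf2 at 6.32. Terf2ip had 4.76 and Pot1a 3.51, with a range of 3.25 to 4.14. Across these libraries the ranges of Terf2, Acd, Ctc1 and Rtel1 overlapped from neighbour to neighbour, as did those of Terf1, Pot1b and Tinf2. The neighbours Rtel1 and Terf1, Tinf2 and Terf2ip, and Terf2ip and Pot1a did not overlap. Beyond neighbours, the range of Pot1b (5.44 to 9.28) overlapped those of both Rtel1 and Terf2ip. Terf2 exceeded Acd in 11 of 15 libraries, and Terf1 exceeded Pot1b in 9 of 15.

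The order depended on the length used. With the longest transcript, Pot1a rose from rank 9 to rank 7 with 9.31 CPM per kilobase, and Terf2 had 24.1. Exons of Acd shared 33.3% of their bases with Carmil2 on the opposite strand, exons of Tinf2 shared 31.2% with Gmpr2, and exons of Terf2ip shared 2.18% with Gm6793. The other 6 genes shared none. Of 391 genes whose exons were wholly covered by opposite-strand exons, 89.8% had 0 counts in all libraries, beside 85.4% of 611 genes wholly covered on their own strand and 46.2% of 3530 unshared noncoding genes. Without shared bases Acd ranked first at 19.3 and Tinf2 had rank 5 at 9.18. Levels of Acd and Tinf2 relative to other genes are uncertain for this reason, while each gene's comparison between genotypes used the same bases in every library.

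**Figure D1:**
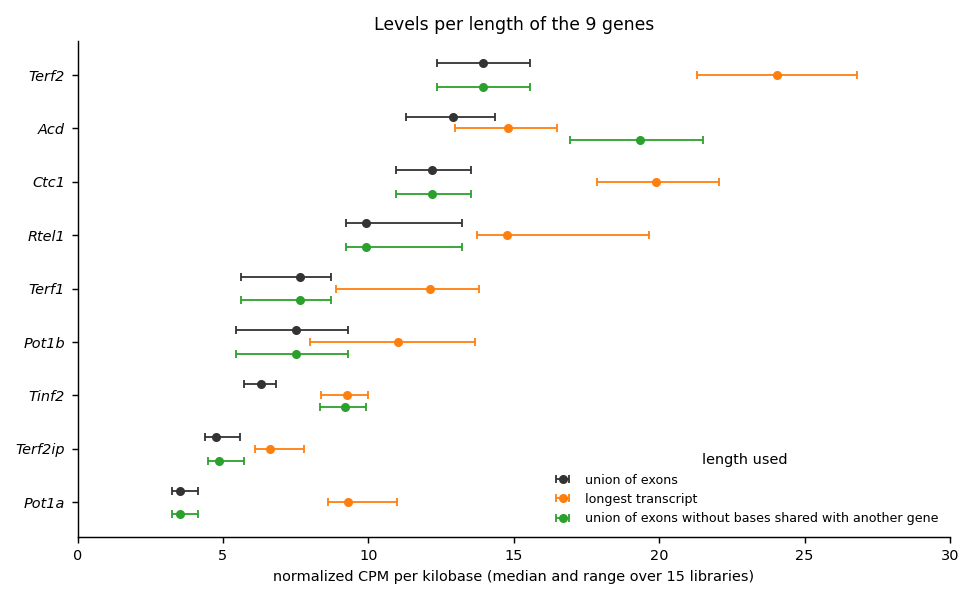
Normalized CPM per kilobase of the 9 genes (x axis), with points at the median and bars from the lowest to the highest of 15 libraries, for 3 choices of gene length (colours). Terf2 is highest with the union of exons at 13.9 and with the longest transcript at 24.1, and Acd is highest at 19.3 once shared bases are left out.

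The duplex-binding proteins are TRF1 and TRF2, encoded by Terf1 (ENSMUSG00000025925, chromosome 1, 15805646 to 15844052, plus strand) and Terf2 (ENSMUSG00000031921, chromosome 8, 107069400 to 107096547, minus strand). Normalized CPM of Terf1 were 37.1, 34.8 and 35.6 in the WT libraries and 31.3, 32.0, 38.2 and 33.5 in the Puma-/- libraries. They were 35.0, 36.3, 36.0 and 40.1 in G3 mTerc-/-Puma+/+ and 35.2, 25.9, 37.6 and 34.3 in labelled double-deficient replicates 1 to 4. The lowest of the 15 was the library that stood apart, and the ranges of the 4 genotypes overlapped pairwise among the 14 libraries tested. Terf1 averaged 35.8 ± 1.20 over 3 WT libraries (mean ± SD), 33.7 ± 3.10 over 4 Puma-/- libraries, 36.9 ± 2.25 over 4 G3 mTerc-/-Puma+/+ libraries and 35.7 ± 1.67 over the 3 labelled double-deficient libraries tested. For Terf1, the edgeR test over the 4 genotypes gave an unadjusted p of 0.406 and an adjusted p of 0.807.

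Normalized CPM of Terf2 were 64.1, 67.8 and 71.5 in the WT libraries and 62.6, 63.1, 64.9 and 63.6 in the Puma-/- libraries. They were 66.8, 61.6, 66.9 and 67.6 in G3 mTerc-/-Puma+/+ and 70.2, 56.8, 59.5 and 63.2 in labelled double-deficient replicates 1 to 4. Values in Puma-/- lay within 2.32 CPM of each other, all inside the range of the G3 mTerc-/-Puma+/+ libraries. Terf2 averaged 67.8 ± 3.68 over 3 WT libraries (mean ± SD), 63.5 ± 1.005 over 4 Puma-/- libraries, 65.8 ± 2.76 over 4 G3 mTerc-/-Puma+/+ libraries and 64.3 ± 5.45 over the 3 labelled double-deficient libraries tested. The log2 fold change of Puma-/- against WT was -0.09 (SE 0.0662, edgeR adjusted p = 0.653). For Terf2, the edgeR test over the 4 genotypes gave an unadjusted p of 0.540 and an adjusted p of 0.869. RAP1, the partner of TRF2, is encoded by Terf2ip (ENSMUSG00000033430, chromosome 8, 112011398 to 112020528, plus strand). Normalized CPM of Terf2ip were 22.3, 27.7 and 22.9 in the WT libraries and 25.3, 22.7, 23.9 and 24.6 in the Puma-/- libraries. They were 27.6, 22.4, 25.1 and 24.3 in G3 mTerc-/-Puma+/+ and 23.5, 21.9, 21.7 and 23.6 in labelled double-deficient replicates 1 to 4. WT replicate 2 and G3 mTerc-/-Puma+/+ replicate 1 were the highest, at nearly the same level, and the genotypes overlapped. For Terf2ip, the edgeR test over the 4 genotypes gave an unadjusted p of 0.689 and an adjusted p of 0.923.

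TIN2, which bridges the duplex-binding proteins and TPP1, is encoded by Tinf2 (ENSMUSG00000007589, chromosome 14, 55674689 to 55681820, minus strand). Normalized CPM of Tinf2 were 31.3, 31.4 and 30.8 in the WT libraries and 28.3, 29.9, 30.4 and 31.9 in the Puma-/- libraries. They were 29.8, 31.0, 30.2 and 31.4 in G3 mTerc-/-Puma+/+ and 33.0, 32.5, 31.2 and 33.7 in labelled double-deficient replicates 1 to 4. Tinf2 varied least of the 9 genes, and the highest values were those of 3 labelled double-deficient libraries, a group that still overlapped every other genotype. Tinf2 averaged 31.2 ± 0.309 over 3 WT libraries (mean ± SD), 30.1 ± 1.48 over 4 Puma-/- libraries, 30.6 ± 0.720 over 4 G3 mTerc-/-Puma+/+ libraries and 32.7 ± 1.31 over the 3 labelled double-deficient libraries tested. Against Puma-/-, the labelled double-deficient libraries had a log2 fold change of 0.12 (SE 0.0627, 95% interval -0.02 to 0.25), with an unadjusted p of 0.0832 and an edgeR adjusted p of 0.668. That unadjusted p was the smallest of all pairwise comparisons of the 9 genes. For Tinf2, the edgeR test over the 4 genotypes gave an unadjusted p of 0.320 and an adjusted p of 0.756.

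TPP1, which carries POT1 and recruits telomerase, is encoded by Acd (ENSMUSG00000038000, chromosome 8, 105695860 to 105701102, minus strand). Normalized CPM of Acd were 40.9, 49.0 and 47.8 in the WT libraries and 49.4, 44.3, 51.8 and 46.4 in the Puma-/- libraries. They were 46.7, 47.8, 45.6 and 44.8 in G3 mTerc-/-Puma+/+ and 45.1, 52.0, 43.2 and 50.1 in labelled double-deficient replicates 1 to 4. WT replicate 1 was the lowest library and the library that stood apart the highest, with no genotype clear of another. Acd averaged 45.9 ± 4.35 over 3 WT libraries (mean ± SD), 48.0 ± 3.32 over 4 Puma-/- libraries, 46.2 ± 1.32 over 4 G3 mTerc-/-Puma+/+ libraries and 46.1 ± 3.56 over the 3 labelled double-deficient libraries tested. For Acd, the edgeR test over the 4 genotypes gave an unadjusted p of 0.823 and an adjusted p of 0.960.

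Pot1a (ENSMUSG00000029676, chromosome 6, 25743737 to 25809246, minus strand) encodes the paralog that represses ATR signalling at mouse telomeres, and Pot1b (ENSMUSG00000024174, chromosome 17, 55651951 to 55712628, minus strand) the one that limits resection of the C-rich strand. Normalized CPM of Pot1a were 32.7, 31.6 and 28.3 in the WT libraries and 28.8, 29.3, 30.5 and 30.8 in the Puma-/- libraries. They were 28.7, 30.8, 35.7 and 35.9 in G3 mTerc-/-Puma+/+ and 28.2, 28.2, 34.3 and 30.1 in labelled double-deficient replicates 1 to 4. The highest values were in G3 mTerc-/-Puma+/+ replicates 3 and 4, while the other libraries of that genotype lay among the rest. Pot1a averaged 30.9 ± 2.31 over 3 WT libraries (mean ± SD), 29.8 ± 0.953 over 4 Puma-/- libraries, 32.8 ± 3.596 over 4 G3 mTerc-/-Puma+/+ libraries and 30.9 ± 3.13 over the 3 labelled double-deficient libraries tested. For Pot1a, the edgeR test over the 4 genotypes gave an unadjusted p of 0.519 and an adjusted p of 0.861.

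Normalized CPM of Pot1b were 43.4, 38.9 and 39.5 in the WT libraries and 40.3, 42.6, 42.0 and 48.9 in the Puma-/- libraries. They were 38.7, 28.7, 38.1 and 43.0 in G3 mTerc-/-Puma+/+ and 46.0, 30.4, 36.6 and 32.4 in labelled double-deficient replicates 1 to 4. Pot1b varied most of the 9 genes, with the lowest value in G3 mTerc-/-Puma+/+ replicate 2 and the highest in Puma-/- replicate 4, which were 1.71-fold apart. Pot1b averaged 40.6 ± 2.44 over 3 WT libraries (mean ± SD), 43.5 ± 3.76 over 4 Puma-/- libraries, 37.1 ± 6.03 over 4 G3 mTerc-/-Puma+/+ libraries and 38.3 ± 6.99 over the 3 labelled double-deficient libraries tested. In G3 mTerc-/-Puma+/+ against Puma-/-, the log2 fold change was -0.23 (SE 0.126, 95% interval -0.50 to 0.04, edgeR adjusted p = 0.372), the largest in size for any of the 9 genes in a pairwise comparison. Without G3 mTerc-/-Puma+/+ replicate 2 it was -0.11, with Xist as a covariate -0.10, and without G3 mTerc-/-Puma+/+ replicate 4 -0.31, with an unadjusted p of 0.0378 and an edgeR adjusted p of 0.294. The labelled double-deficient libraries gave -0.18 (SE 0.136, edgeR adjusted p = 0.784) against Puma-/-, and -0.33 without their replicate 1 (unadjusted p = 0.0304, edgeR adjusted p = 0.456), -0.07 without their replicate 4 and -0.12 without Puma-/- replicate 4. The progenitor marker Flt3 was lowest in the libraries with the lowest Pot1b, at 57.2 CPM in G3 mTerc-/-Puma+/+ replicate 2 and 3.45 in the library that stood apart, beside 96.3 to 187 in the other 13. The summed level of the 5 progenitor markers Kit, Cd34, Flt3, Gata2 and Myb was 762 and 798 CPM in these libraries and 829.5 to 1185 in the others. The other markers of that list did not all follow Flt3, since in the library that stood apart Myb was the highest of 15 at 476 CPM and Kit, at 145.9, lay within the range. Flt3 was singled out after its values were seen, and its part in the Pot1b level was not tested.

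Ctc1 (ENSMUSG00000020898, chromosome 11, 69015911 to 69036473, plus strand) encodes the large subunit of CST. Normalized CPM of Ctc1 were 74.3, 82.9 and 91.8 in the WT libraries and 89.5, 82.2, 79.4 and 79.7 in the Puma-/- libraries. They were 83.6, 84.3, 86.4 and 83.0 in G3 mTerc-/-Puma+/+ and 89.7, 80.4, 75.4 and 81.7 in labelled double-deficient replicates 1 to 4. WT held both the lowest and the highest of the 15 values, and the means of the 4 genotypes lay between 82.3 and 84.3 CPM. For Ctc1, the edgeR test over the 4 genotypes gave an unadjusted p of 0.969 and an adjusted p of 0.994, the largest p of the 9 genes.

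Rtel1 (ENSMUSG00000038685, chromosome 2, 181319739 to 181356616, plus strand) encodes the helicase. Normalized CPM of Rtel1 were 64.6, 66.4 and 64.6 in the WT libraries and 65.7, 69.2, 61.2 and 67.8 in the Puma-/- libraries. They were 64.8, 73.3, 71.1 and 63.9 in G3 mTerc-/-Puma+/+ and 61.8, 87.4, 61.0 and 67.6 in labelled double-deficient replicates 1 to 4. Among the 14 libraries tested the values ran from 61.0 to 73.3, and only the library that stood apart lay outside. Rtel1 averaged 65.2 ± 1.05 over 3 WT libraries (mean ± SD), 66.0 ± 3.48 over 4 Puma-/- libraries, 68.3 ± 4.64 over 4 G3 mTerc-/-Puma+/+ libraries and 63.5 ± 3.56 over the 3 labelled double-deficient libraries tested. Between labelled double-deficient and G3 mTerc-/-Puma+/+ libraries the log2 fold change was -0.10 (SE 0.0683, edgeR adjusted p = 0.905), and it turned to 0.03 with all 15 libraries. For Rtel1, the edgeR test over the 4 genotypes gave an unadjusted p of 0.503 and an adjusted p of 0.855.

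**Figure D2:**
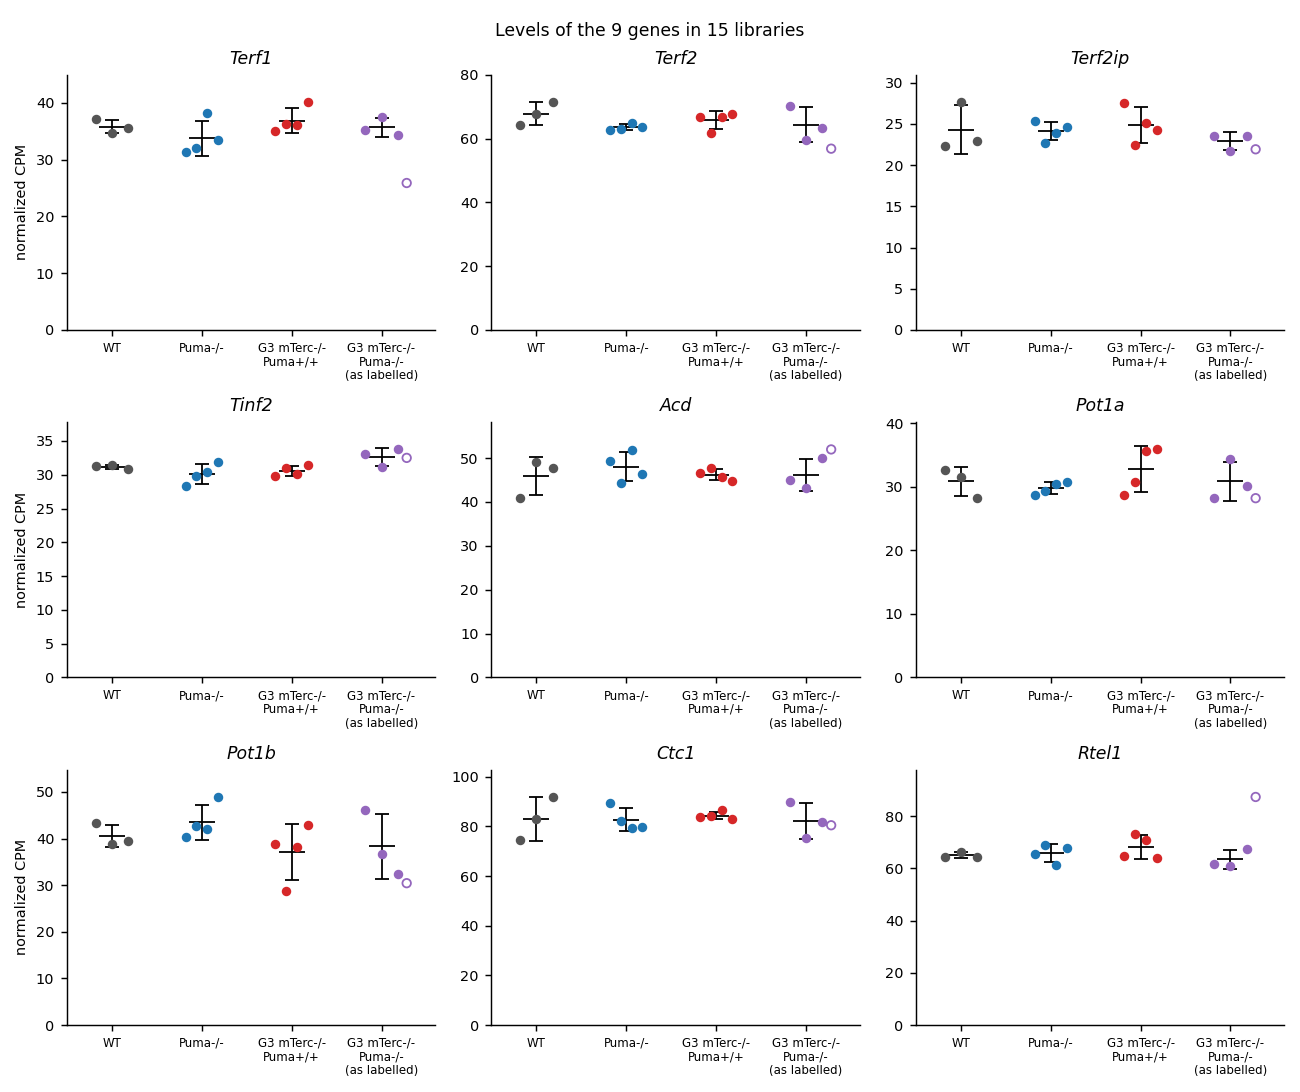
Normalized CPM (y axes, from 0) of the 9 genes in each library by genotype (x axes). Filled points are the 14 libraries tested, bars are mean ± SD over them, and the open point is the library that stood apart, which is lowest for Terf1 at 25.9 CPM and highest for Rtel1 at 87.4.

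None of the 9 genes was called in any of 9 comparisons by edgeR's quasi-likelihood test at an adjusted p under 0.05, and none had an unadjusted p under 0.05. All genes tested gave the following background at the same adjusted threshold. In Puma-/- against WT, 0.079% of the 18983 genes were called, in G3 mTerc-/-Puma+/+ against WT 0.0369%, and in the labelled double-deficient libraries against WT 0.0632%. Against Puma-/-, G3 mTerc-/-Puma+/+ had 0.801% of genes called and the labelled double-deficient libraries 0.306%, and the latter against G3 mTerc-/-Puma+/+ had 0.0738%. The contrast of mTerc-/- with mTerc+/+ averaged over Puma called 0.263%, the interaction of mTerc and Puma 0.0527% and the test over all 4 genotypes 0.448%. With shares this low, 0 of 9 is near the background in each comparison.

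At an unadjusted p under 0.05, the shares of all genes were 10.1%, 3.86% and 5.45% for the comparisons with WT in the same order. They were 17.1%, 8.42% and 6.22% for the other pairs, and 7.76%, 4.93% and 11.4% for the mTerc contrast, the interaction and the test over 4 genotypes. In no pairwise comparison did a genotype lie wholly above or below the other for any of the 9 genes. Of all genes tested, 9.7% did so in Puma-/- against WT, 4.07% in G3 mTerc-/-Puma+/+ against WT and 8.51% in the labelled double-deficient libraries against WT. Against Puma-/- the shares were 10.8% for G3 mTerc-/-Puma+/+ and 9.57% for the labelled double-deficient libraries, and between these groups it was 5.56%. Likewise 0 of 9 were called by DESeq2 and by limma-voom, and DESeq2 gave 1 unadjusted p under 0.05, for Tinf2 in the labelled double-deficient libraries against Puma-/-.

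The 95% intervals come from the fit of 14 libraries, each for 1 gene in 1 comparison, without adjustment for their number. Leaving out single libraries moved some of the values, as given for Pot1b. Over the 54 pairwise values (9 genes, 6 comparisons), log2 fold changes ran from -0.23 for Pot1b to 0.13 for Pot1a, both in G3 mTerc-/-Puma+/+ against Puma-/-, with standard errors of 0.0582 to 0.145. The outermost 95% bounds were -0.50 and 0.39, both of Pot1b, that is, 29.2% lower and 31.2% higher. The median size of the log2 change of the 9 genes in G3 mTerc-/-Puma+/+ against Puma-/- was 0.0487, beside 0.174 over all genes tested, and in G3 mTerc-/-Puma+/+ against WT it was 0.0414 beside 0.117. These pairwise comparisons share their groups, so that they are not separate evidence. All genes tested include genes with far lower counts, whose changes carry more counting error. No background matched on level was taken, so the smaller median size is not read as a trait of the 9 genes.

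**Figure D3:**
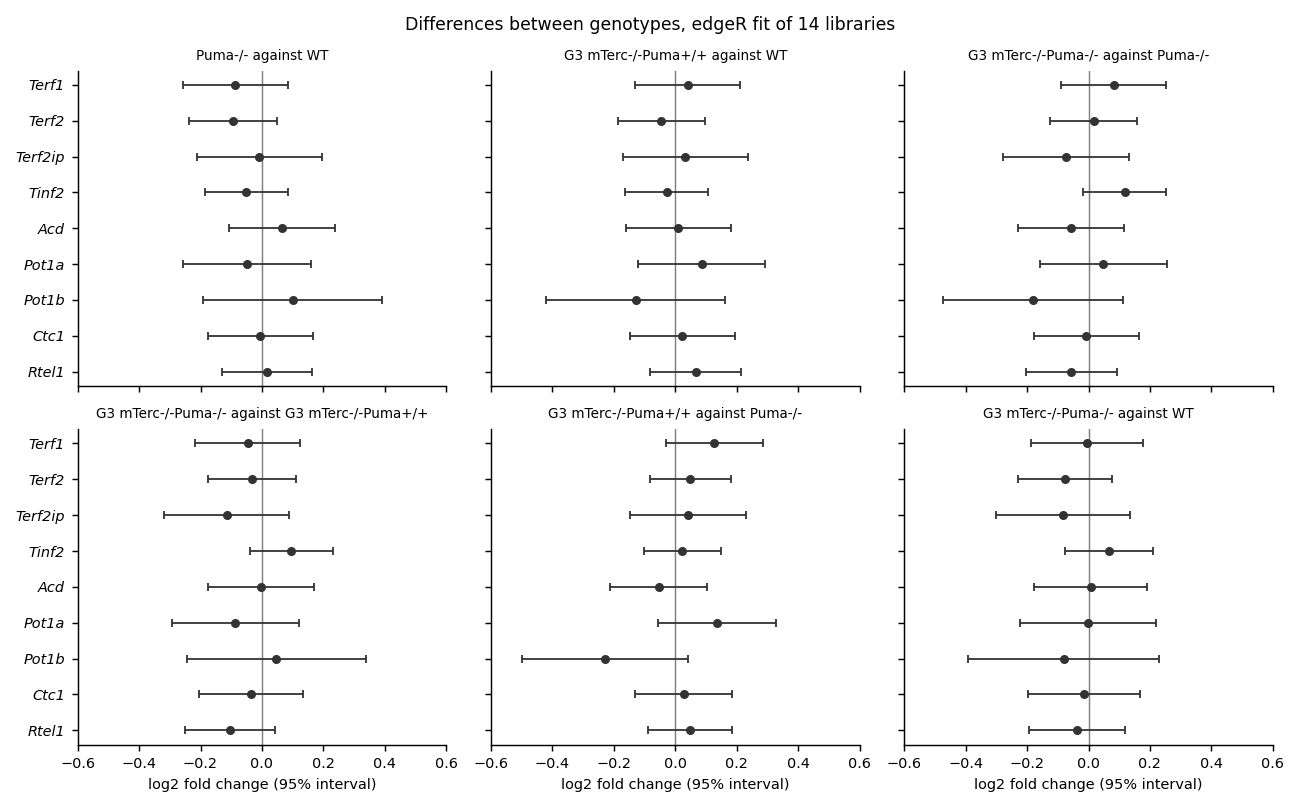
Log2 fold changes (x axes) of the 9 genes (y axes) in the 6 pairwise comparisons of genotypes, with 95% intervals from edgeR's fit of 14 libraries. All 54 intervals include 0, and Pot1b has the widest, reaching -0.50 in G3 mTerc-/-Puma+/+ against Puma-/-.

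Pooled over Puma, the 7 mTerc-/- libraries were set against the 7 mTerc+/+ libraries in the same fit. This gives the difference by mTerc, averaged over Puma as labelled. The Puma-/- group, on the mTerc+/+ side, lay below every other genotype in the Y-linked gene Ddx3y. Sex and genotype are therefore partly mixed in this contrast and in the interaction. The log2 fold change with its 95% interval was -0.15 (-0.36 to 0.05) for Pot1b, 0.07 (-0.08 to 0.21) for Pot1a and 0.06 (-0.06 to 0.18) for Terf1. It was 0.04 (-0.05 to 0.14) for Tinf2, 0.01 (-0.11 to 0.13) for Ctc1 and 0.01 (-0.10 to 0.11) for Rtel1, and -0.02 (-0.14 to 0.10) for Acd, -0.02 (-0.16 to 0.12) for Terf2ip and -0.01 (-0.12 to 0.09) for Terf2. The median of the 9 values was 0.00518, and the median of all genes tested was 0.0101. Pot1b, the largest in size, had an edgeR adjusted p of 0.748. Without labelled double-deficient replicate 1 its value was -0.23 (unadjusted p = 0.0246, edgeR adjusted p = 0.406), without their replicate 4 it was -0.10, and with Xist as a covariate -0.09. An effect of mTerc that differed with Puma, the interaction, ran from -0.12 for Rtel1 to 0.15 for Tinf2, each with an edgeR adjusted p of 0.999, and the Rtel1 value turned to 0.01 with all 15 libraries.

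The ratio of Pot1a to Pot1b within a library hardly depends on library scaling, and was taken as the difference of log2 normalized CPM with 0.5 added to each. It was -0.40, -0.29 and -0.47 in WT and -0.48, -0.53, -0.46 and -0.66 in Puma-/-. It was -0.43, 0.10, -0.09 and -0.26 in G3 mTerc-/-Puma+/+, and -0.70, -0.11, -0.09 and -0.10 in labelled double-deficient replicates 1 to 4. All mTerc+/+ libraries lay between -0.66 and -0.29, while the mTerc-/- libraries reached from -0.70 to 0.10 and overlapped them. The mean was -0.22 ± 0.26 (SD, n = 7) in mTerc-/- and -0.47 ± 0.11 (n = 7) in mTerc+/+. The difference of 0.25 had a p of 0.0443 by an exact two-sided permutation test over 3432 splits, and a Benjamini-Hochberg adjusted p of 0.177 over the 4 tests of ratios, so that it did not pass. Labelled double-deficient replicate 1 had the lowest ratio of all, and without it the difference was 0.33 with an exact permutation p of 0.00291, adjusted to 0.0117. Leaving out the lowest mTerc-/- library raises the difference by construction. Without G3 mTerc-/-Puma+/+ replicate 2, which had the highest ratio, the difference was 0.19 (exact permutation p = 0.0868, adjusted p = 0.347). By Puma, as labelled, the difference was -0.17 (exact permutation p = 0.186, adjusted p = 0.270).

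The log2 ratio of Terf1 to Terf2 was -0.78, -0.95 and -0.997 in WT and -0.99, -0.97, -0.76 and -0.91 in Puma-/-. It was -0.92, -0.76, -0.88 and -0.75 in G3 mTerc-/-Puma+/+, and -0.99, -1.12, -0.66 and -0.87 in labelled double-deficient replicates 1 to 4. The lowest value was that of the library that stood apart, and the 4 genotypes overlapped. The mTerc-/- libraries exceeded the mTerc+/+ libraries by 0.08 (exact permutation p = 0.203, adjusted p = 0.270), and the libraries labelled Puma-/- differed from Puma+/+ by -0.01 (exact permutation p = 0.821, adjusted p = 0.821).

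**Figure D4:**
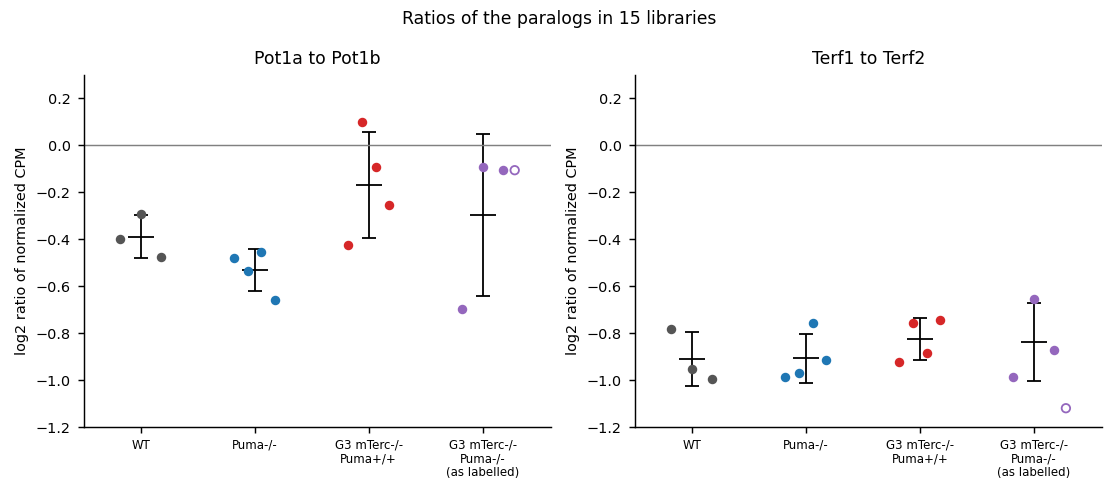
Log2 ratios (y axes) of Pot1a to Pot1b and of Terf1 to Terf2 in each library by genotype (x axes). Bars are mean ± SD over the 14 libraries tested, and the open point is the library that stood apart. The Pot1a to Pot1b ratio lies between -0.66 and -0.29 in mTerc+/+ libraries and spreads from -0.70 to 0.10 in mTerc-/- libraries.

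Spread between libraries of a genotype differed among the 9 genes. The pooled standard deviation of log2 CPM was 0.04998 for Tinf2, and 0.390% of all genes tested varied less. It was 0.0733 for Terf2 and 0.0772 for Rtel1, followed by 0.0911 for Terf1, 0.0982 for Acd and 0.0990 for Ctc1. Terf2ip had 0.111, Pot1a 0.120 and Pot1b 0.192. The median over all genes was 0.156, and Pot1b was the 1 member above it. All genes tested include genes with far lower counts and more counting error, and no background matched on level was taken.

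In the library that stood apart, 4 of the 9 genes took an extreme place among all 15 libraries. Terf1 (25.9 CPM) and Terf2 (56.8) were lowest there, and Acd (52.0) and Rtel1 (87.4) highest. Ctc1, Tinf2, Pot1a, Pot1b and Terf2ip lay within the range of the others. This library stood apart over all genes, and the share of all genes at an extreme place in it was not taken. The 4 of 9 are therefore not read as a trait of these genes. The CST subunit Stn1 was at 6.21 CPM there, where the other libraries had 13.4 to 24.2. In the same library all 5 erythroid markers lay above the 14 other libraries, with a sum of 583 CPM beside 186 to 292. Of 8 proliferation markers 5 lay below the others, with a sum of 2594 beside 2872 to 3601. Among 6 granulocyte and monocyte markers, 3 (Mpo, Elane and S100a8) were above and 1, Csf1r, was below, at 25.98 CPM beside 239 to 403. In the other lists with a sum outside the range, 1 gene each was outside, namely Nkg7 of the 5 T and NK markers (565 CPM, beside 267 to 464), Vcam1 of the 4 macrophage markers (238 beside 42.1 to 158) and Mcpt8 of the 3 mast cell and basophil markers (247 beside 369 to 1226). The part of these markers in the levels of the 9 genes was not tested.

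Other telomere genes were taken from 4 lists with 34 members, all tested. None was called in any comparison by edgeR's adjusted p. By limma-voom 0 were called as well, and DESeq2 called 2, Pola1 and Blm, both in G3 mTerc-/-Puma+/+ against Puma-/-. In that comparison DESeq2 called 996 of the 18983 genes that passed the filter, so that 2 of 34 is near the background. At an unadjusted p under 0.05, the test over 4 genotypes passed 3 of 34 (8.82%), beside 11.4% of all genes, and G3 mTerc-/-Puma+/+ against Puma-/- passed 9 of 34 (26.5%), beside 17.1% of all genes. The other pairwise comparisons passed 1 of 34 each, the mTerc contrast 2 and the interaction 0.

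Among the 6 genes of the CST partners and the fill-in polymerase, Pola1, the catalytic subunit of DNA polymerase alpha, had the smallest p over 4 genotypes (unadjusted 0.0116, edgeR adjusted p = 0.262). Pola1 was 82.1 ± 1.40 CPM in Puma-/- (SD, n = 4), beside 99.7 ± 12.7 in WT (n = 3), 98.9 ± 5.50 over 4 G3 mTerc-/-Puma+/+ libraries and 96.6 ± 7.18 over 3 labelled double-deficient ones. All Puma-/- libraries lay below all others of the 14. The same held for the Y-linked gene Ddx3y, so that the sex of the cells and the genotype cannot be told apart here. The log2 fold change of Pola1 in Puma-/- against WT was -0.28 (SE 0.0832, edgeR adjusted p = 0.358). That of the labelled double-deficient libraries against Puma-/- was 0.23 (SE 0.0832, edgeR adjusted p = 0.421). Stn1, which binds CTC1 in CST, was 17.5 ± 3.31 CPM in G3 mTerc-/-Puma+/+ and 22.04 ± 1.63 in Puma-/- (n = 4 each), a log2 fold change of -0.33 (SE 0.121, edgeR adjusted p = 0.191).

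Among 12 enzymes that act at telomeres, the exonuclease Exo1 and the helicase Blm had the smallest p over 4 genotypes, with edgeR adjusted p of 0.390 and 0.394. Exo1 was 43.6 ± 1.77 CPM in G3 mTerc-/-Puma+/+ (n = 4) and 38.9 ± 0.328 in WT (n = 3), a log2 fold change of 0.16 (SE 0.0646, edgeR adjusted p = 0.998). Blm was 46.6 ± 4.10 CPM in G3 mTerc-/-Puma+/+ and 39.7 ± 0.785 in Puma-/- (n = 4 each), a log2 fold change of 0.23 (SE 0.0684, edgeR adjusted p = 0.119), and DESeq2 gave an adjusted p of 0.0358. The flap endonuclease gene Fen1 shared 84.2% of its exon bases with Tmem258 and Gm10143 on the opposite strand, and its level of 3.77 to 5.79 CPM is uncertain.

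Of 7 telomere-associated chromatin and repeat-binding proteins, Smchd1 (edgeR adjusted p = 0.606 over 4 genotypes) and Rif1 (0.691) had the smallest p. Smchd1 was 119 to 133 CPM in Puma-/- and 141 to 154 in G3 mTerc-/-Puma+/+, and Rif1 54.4 to 75.1 and 71.3 to 80.5. Of 9 genes of the telomerase holoenzyme other than Terc, Naf1, which helps assemble the RNA particle, and Tert, the reverse transcriptase, had edgeR adjusted p of 0.644 and 0.717. Naf1 was 16.8 to 19.5 CPM in Puma-/- and 17.5 to 30.6 in G3 mTerc-/-Puma+/+, and Tert was low in all libraries, at 0.806 to 2.91 CPM. All 9 telomerase genes had a log2 fold change above 0 in mTerc-/- against mTerc+/+, from 0.00456 to 0.20, and none passed the edgeR test. Their median was 0.0737, beside 0.0101 over all genes tested. G3 mTerc-/-Puma+/+ replicate 2 was the highest of the 14 libraries for Dkc1, Nop10, Nhp2, Gar1, Naf1 and Pinx1. Tert, Parn and Wrap53 were highest in other libraries. The 9 values come from the same libraries, so that they are not separate evidence.

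**Figure D5:**
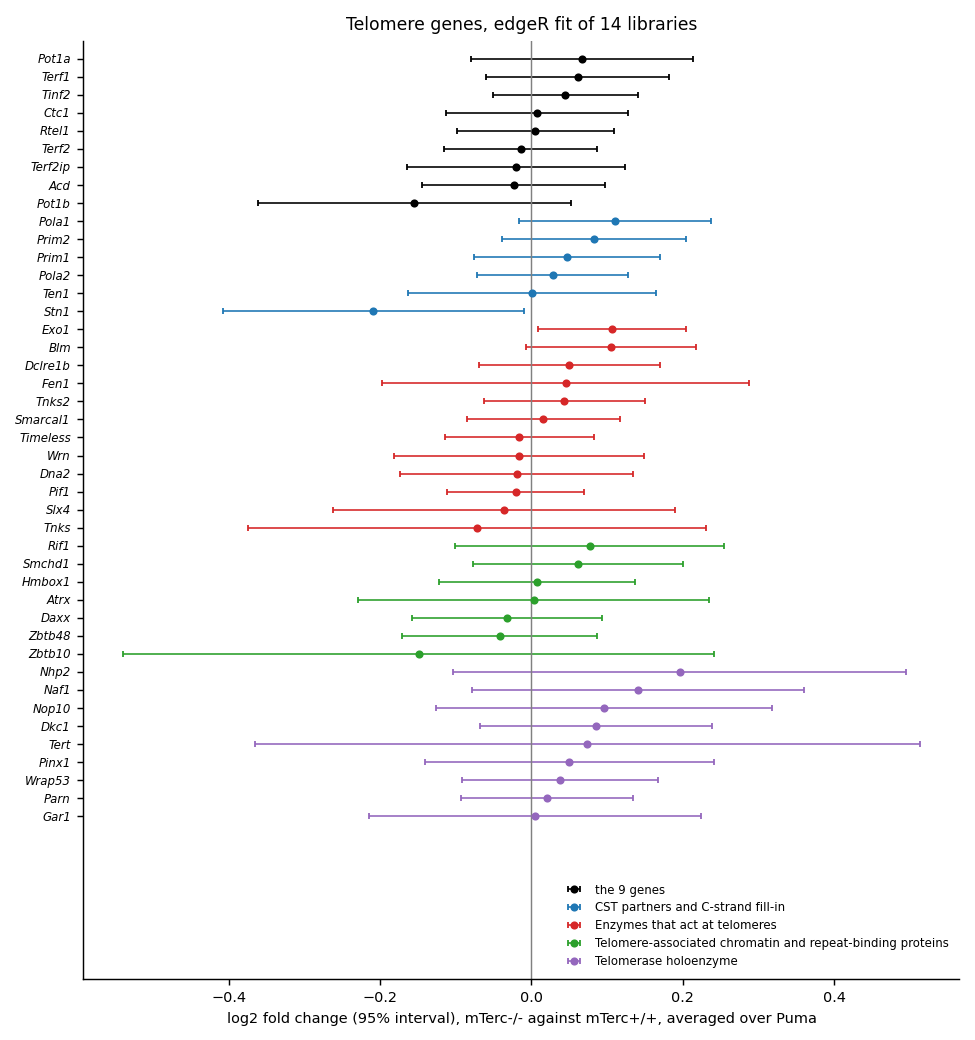
Log2 fold changes of mTerc-/- against mTerc+/+ averaged over Puma (x axis) with 95% intervals, for the 9 genes and the 34 other telomere genes (y axis) by list (colours). Values of the 9 genes run from -0.15 for Pot1b to 0.07 for Pot1a, and Stn1 has the lowest value of all at -0.21.

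Marker genes of cell types also differed between groups. Progenitor markers were detected in every library, and none of 45 marker genes of 9 lists was at 0 counts in any. Megakaryocyte markers fell in G3 mTerc-/-Puma+/+ against Puma-/-, where 3 of 4 (Pf4, Gp9 and Vwf) passed the edgeR test, and the same 3 fell in the labelled double-deficient libraries against Puma-/-. Their summed level was 301 to 484 CPM in Puma-/-, 124 to 268 in WT, 149 to 198 in G3 mTerc-/-Puma+/+ and 116 to 172 in the labelled double-deficient libraries. Of 8 proliferation markers, Ccnb1 passed in G3 mTerc-/-Puma+/+ against Puma-/-, with a log2 fold change of 0.44 (edgeR adjusted p = 0.0431), and their summed level was 2872 to 2962 CPM in Puma-/-, 3008 to 3601 in WT, 3108 to 3486 in G3 mTerc-/-Puma+/+ and 3035 to 3458 in the labelled double-deficient libraries. In 6 of the 9 marker lists no gene was called, and the part of these shifts in the telomere gene levels was not tested. The Y-linked gene Ddx3y was at 0.0178 to 0.0448 CPM in Puma-/- and 21.3 to 43.2 in WT. It was 42.8 to 48.3 in G3 mTerc-/-Puma+/+ and 2.88 to 46.0 in the labelled double-deficient libraries. All Puma-/- libraries thus lay below the libraries of every other genotype. In comparisons with Puma-/-, those of the telomere genes included, the sex of the cells and the genotype cannot be told apart. The same holds in part for the mTerc contrast, the interaction, the test over 4 genotypes and the ratios, which all include the Puma-/- libraries. A fit with Xist as a covariate also called 0 of the 9 genes, but it cannot separate sex from genotype where they run together.

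Tinf2 had the smallest p over 4 genotypes, and the 5 genes whose log2 CPM followed it most closely over the 14 libraries were Gm49339 (Pearson r = 0.812), Gm37563 (0.758), H3f3aos (0.721), Olfm4 (0.705) and Trit1 (0.705). These are descriptions over libraries that share the same normalization, chosen as the highest of all genes tested.

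RefSeq promoters on GRCm38.p6, each 300 bases long and spanning the gene start, were found for 8 of the 9 genes, and Terf1 was not matched. The 8 held 7 to 24 CG dinucleotides, with a median of 17 beside 7 over the promoters of all 27025 genes in the table. GGGCGG, searched on both strands, occurred in 6 of 8 (Rtel1, Pot1a, Terf2, Terf2ip, Ctc1 and Pot1b), beside 35.9% of all promoters. TATAAA, on either strand, occurred in 0 of 8, beside 14.2%, and the telomeric unit TTAGGG in 1 of 8, Pot1b, beside 10.5%. GGGCGG and TTAGGG can share bases where one runs into the other, and a match is a description only.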

How the data were processed

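RNA of Lin- BM cells was measured in 15 libraries of 4 genotypes. The deposited values were raw read counts per Ensembl gene. Per the labels, the authors made poly(A) libraries with the TruSeq Stranded mRNA kit, trimmed reads with Trimmomatic 0.38 and aligned them with STAR 2.5.2b to mm10. The annotation release and the strand setting of counting are not given in the sources used here. Identifiers without a GENCODE vM21 symbol (563) held 0.0643% of counts. Genes were filtered with filterByExpr, scaled by TMM (factors 0.926 to 1.07) and tested in edgeR 4.0.16 (R 4.3.3) with the quasi-likelihood test over 14 libraries in one fit of 4 genotypes, with Benjamini-Hochberg adjustment over 18983 genes. The fit left out labelled double-deficient (G3 mTerc-/-Puma-/-) replicate 2. Normalized CPM are counts scaled by the TMM-adjusted library total (CPM). Log2 ratios were compared by exact permutation. Alternatives used DESeq2 1.42.0, limma-voom (limma 3.58.1), other scalings and filters, all 15 libraries, a replicate block, Xist as a covariate, other gene lengths and leaving out each library. Lengths without shared bases were added after seeing the data. The fits were tested on simulated data. Coding sequences were aligned with Biopython 1.88. The 9 genes and all gene lists were chosen with earlier results of these data known. Beyond the 9 genes, the text names the 2 genes with the smallest p over 4 genotypes in each telomere list. Fen1, Flt3 and the markers named with their own test were singled out after their values were seen. The result of 1 of the 9 marker lists is not reported here.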

Additional observations from a re-analysis of the deposited data

Results flagged for a closer look

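In 33 sets of 4 libraries of a genotype, a library was called far from the others when its gap to the nearest, divided by the range, was above the 95% critical value of Dixon, which chance gives in about 1 of 20 sets. There were 2 such cases. Terf2 had 61.65 normalized CPM in G3 mTerc-/-Puma+/+ replicate 2, the lowest of its genotype. The Pot1a to Pot1b log2 ratio was -0.6972 in labelled double-deficient replicate 1, the lowest of its group.

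Labelled double-deficient replicate 2, which the tests left out, lay above every WT library for 3 of the 9 genes. It had 32.49 normalized CPM of Tinf2, where the highest WT library had 31.37. Acd stood at 51.97 there, beside at most 49.01 in WT, and Rtel1 at 87.41, beside at most 66.4. The share of all genes above every WT library in it was not taken, so the 3 of 9 are not read as a trait of these genes. None of the 9 genes had an interaction of mTerc and Puma past the threshold of edgeR's adjusted p, and none had an unadjusted p under 0.05 in that test.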

How the results depend on the processing

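Of 213 repeats of the 9 comparisons, each under 1 changed setting, none called any of the 9 genes, and the lowest adjusted p was 0.1405 (edgeR, Terf1 in G3 mTerc-/-Puma+/+ against Puma-/- without Puma-/- replicate 3). Leaving out each library also gave 0 to 0 calls, and 5 of these fits brought a gene to an unadjusted edgeR p under 0.05, Pot1b in 3 and Terf1 in 2. Log2 values of mTerc-/- against mTerc+/+ near 0 changed sign. With Xist as a covariate Terf2 was 0.0061 and Terf2ip 0.02 (0.01905), and with a filter of CPM above 1 in at least 3 libraries Rtel1 was -0.0011. With all 15 libraries the Rtel1 interaction was 0.0082 and its labelled double-deficient against G3 mTerc-/-Puma+/+ value 0.0253. Fits without 1 library gave -0.0479 to 0.0130 for Terf2, -0.0566 to 0.0322 for Terf2ip, -0.0694 to 0.0017 for Acd, -0.0369 to 0.0471 for Ctc1 and -0.0181 to 0.0205 for Rtel1. The cause was not tested. The difference of the Pot1a to Pot1b log2 ratio by mTerc ran from 0.193 to 0.326 and passed only without labelled double-deficient replicate 1, and that of Terf1 to Terf2 by Puma ran from -0.0516 to 0.0049. Blm, at 0.23 in G3 mTerc-/-Puma+/+ against Puma-/-, passed in DESeq2 alone. With the longest transcript, medians per kilobase were 12.11 for Terf1, 24.05 for Terf2, 6.625 for Terf2ip, 9.248 for Tinf2, 14.81 for Acd, 9.311 for Pot1a, 11.02 for Pot1b, 19.9 for Ctc1 and 14.77 for Rtel1. Without shared bases they were 9.182 for Tinf2 and 19.33 for Acd, both lengths being shorter by construction.

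The labels do not say that replicate numbers pair the libraries. Deviations of same-numbered libraries correlated at -0.256 to 0.231, with 4 of 18 pairs over 0.1. Those of different-numbered libraries correlated at -0.293 to 0.315, with 15 of 55 pairs over 0.1. These correlations cannot show whether libraries shared a batch. The replicate block called 0 of the 9 genes, moved the Pot1a to Pot1b difference to 0.27 (exact permutation p = 0.0278, adjusted p = 0.111) and lowered the calls over all genes in the labelled double-deficient libraries against Puma-/- from 58 to 21. Counts over all genes moved with the tool, the covariate and single libraries. DESeq2 called 136, 46, 91, 996, 287 and 172 genes in Puma-/-, G3 mTerc-/-Puma+/+ and labelled double-deficient against WT, in G3 mTerc-/-Puma+/+ and labelled double-deficient against Puma-/-, and between the last groups, where edgeR called 15, 7, 12, 152, 58 and 14. The lowest counts over settings that left out no single library were 11, 3, 5, 18 (Xist as a covariate), 21 and 2, and the lowest without 1 library were 11, 1 (WT replicate 1 left out), 1 (WT replicate 3), 18 (Puma-/- replicate 4), 18 (labelled double-deficient replicate 3) and 4 (G3 mTerc-/-Puma+/+ replicate 2). For the mTerc contrast, interaction and test over 4 genotypes, edgeR called 50, 10 and 85 genes, DESeq2 252, 64 and 836, the lowest counts over those settings were 23, 5 and 36, and the lowest without 1 library 24, 5 and 34. With 3 or 4 libraries a genotype, differences inside the printed intervals are not excluded by these data.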
